A study of Mus musculus with 10 samples.

Results

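The IGKV3 segments are the V gene segments of the mouse immunoglobulin kappa light chain locus (Igk) that lie closest to its J segments. They were taken from the table by name, after removal of the allele, and 10 of its 114 V segments belonged to the family. Every V segment of the table numbered 1 to 12, counted outward from the J segments, was one of these 10, so the position in the name of the group held for these data. They carried 11889 of 161780 counts, or 7.35%, in 1668 distinct clonotypes, a clonotype being 1 combination of V segment, J segment and junction sequence. The rest of the V segments, 104 in all, are called other V segments below. Names are written in capitals as in the table.

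The counts came from Igk repertoire libraries made from the RNA of small pre-B cells, purified by FACS, from the bone marrow of C57Bl6 mice aged 6 to 12 weeks. There were 5 samples labelled WT and 5 labelled rsCBE, the latter written with a delta in the design text and not spelled out in the labels. The title of the study concerns CTCF-mediated chromatin topology and receptor editing, and the comparison asks how the rearranged light chain genes differ between the genotypes. Another mutant of that text was not analysed here. Nothing in the labels says that the samples came from separate mice, so p-values measure the spread between these samples. The table holds Igk joints alone, so the labelled cell type could not be checked against marker genes.

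At the pre-B stage a V segment is cut next to its recombination signal and joined to 1 of the J segments, and bases may be lost from both ends or added between them. The junction encodes the third complementarity-determining region (CDR3), the part of the light chain that varies most. A J segment lying upstream of the one in use is removed by a join on the same strand. After such a join, a cell that rearranges the same allele again, as in receptor editing, must use an outer V segment and a J segment further downstream. Of the functional J segments, J1 is the first in the row and J5 the last, and J3 carries a defect that keeps it almost unused. V segments on the strand of the J segments, as all IGKV3 segments are, join by deletion of the DNA in between.

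In the GENCODE M21 annotation of build GRCm38, the same assembly as the mm10 of the submitters' processing notes, all 10 segments lie on chromosome 6, plus strand, each with 2 exons. IGKV3-1 (ENSMUSG00000095682.1) spans chr6:70703578-70704177 and ends 18.385 kb before J1. IGKV3-2 (ENSMUSG00000095351.2) spans chr6:70698449-70699067, 23.495 kb before J1. IGKV3-7 (ENSMUSG00000076598.3) spans chr6:70607437-70608036, 114.526 kb before J1. IGKV3-10 (ENSMUSG00000076596.3) spans chr6:70572633-70573230, 149.332 kb before J1. IGKV3-12 (ENSMUSG00000094117.1) spans chr6:70518250-70518849 and is the farthest, 203.713 kb before J1. IGKV3-3, IGKV3-4, IGKV3-5, IGKV3-8 and IGKV3-9 lie between these at 35.028, 50.185, 58.667, 133.11 and 133.785 kb. IGKV3-8 is annotated as a pseudogene and the others as V genes.

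The 3' ends of the second exons decide which junctions the family can make, so they are shown here from the annotated transcripts. Lower case marks the codon of the conserved cysteine, and capitals mark the 23 germline bases that enter the CDR3.
IGKV3-1: tgtCAGCAAAGTAGGAAGGTTCCTTC
IGKV3-2: tgtCAGCAAAGTAAGGAGGTTCCTCC
IGKV3-3: tgtCAGCAAAGTATTGAGGATCCTCC
IGKV3-4: tgtCAGCAAAGTAATGAGGATCCTCC
IGKV3-5: tgtCAGCAAAGTAATGAGGATCCTCC
IGKV3-7: tgtCAGCACAGTTGGGAGATTCCTCC
IGKV3-8: tgtCAGCAAAGTAATGAGAATCCTCC
IGKV3-9: tgtATGCAAAGTATGGAAGATCCTCC
IGKV3-10: tgtCAGCAAAATAATGAGGATCCTCC
IGKV3-12: tgtCAGCACAGTAGGGAGCTTCCTCC
The J segments begin as follows, with the CDR3 bases in capitals and the first bases after it in lower case.
Igkj1: GTGGACGttc
Igkj2: TGTACACGttc
Igkj4: ATTCACGttc
Igkj5: GCTCACGttc
IGKV3-4 and IGKV3-5 have the same 23 bases, and 9 of the 10 segments end alike, IGKV3-1 being the exception. Over the whole V exon of 310 bases the 45 pairs of segments were 82.2 to 98.1% identical, with a median of 88.4%. The most alike pair was IGKV3-5 and IGKV3-10, which lie 90.7 kb apart and differ at 6 bases. Because reads of such segments can be confused, each CDR3 was compared with the germline ends over its first 17 bases, and 99.8% of the counts were at least as close to the segment they had been called as to any other member. The remaining 28 counts were closer to another member, at most 1.31% of a segment's counts (IGKV3-4), and IGKV3-4 and IGKV3-5 cannot be told apart by these bases. The V call and the CDR3 came from the same reads, so this comparison cannot exclude that similar segments were confused.

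The libraries differed in depth and in how they were deposited. The depth of a sample was 3109 to 24083 counts, of which 232 to 1888 were of the family, and WT replicate 4 had the fewest of both. Replicates 1 and 2 of each genotype were given as 1 library (batch 1), and replicates 3, 4 and 5 as 2 parts that were added up (batch 2). The labels name no batch, and this split was read from the table. For WT replicate 4, the Wilson 95% interval of a J1 share of 37.9% among its 232 IGKV3 counts ran from 31.9 to 44.3%, and it covers counting error only, since a count is not known to be a separate molecule.

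The family as a whole was used to a like extent in both genotypes. In WT the IGKV3 share of all counts was 6.19, 7.94, 7.56, 7.46 and 7.96% in replicates 1 to 5. In rsCBE it was 7.84, 7.13, 8.02, 7.44 and 6.05%. The samples of the genotypes overlap, with means of 7.42% ± 0.723 (SD, n = 5) and 7.29% ± 0.778 (SD, n = 5). In edgeR's quasi-likelihood test across all 20 V families the log2 fold change of rsCBE over WT was -0.02 (SE 0.12, Benjamini-Hochberg adjusted p = 0.922). No family was called (0% of 20), with the batch term or the replicate block 2 were (10%), and IGKV3 was not among them. It was the fourth most used of the 20 families. Its sign is not fixed, being above 0 in batch 1 and below 0 in batch 2.

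Within the family, use was very uneven and did not follow distance from the J segments. IGKV3-2 held 26.3% of the family's counts, IGKV3-12 24.6%, IGKV3-10 17.4% and IGKV3-7 13.5%. IGKV3-1, the segment nearest to J1, held 7.0%, IGKV3-5 5.99% and IGKV3-4 3.85%. IGKV3-3, IGKV3-9 and the pseudogene IGKV3-8 held 88, 60 and 16 counts. By mean share of all counts IGKV3-2 was the 14th and IGKV3-12 the 21st of the 114 V segments, while IGKV3-8 was the 110th.

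**Figure D1:**
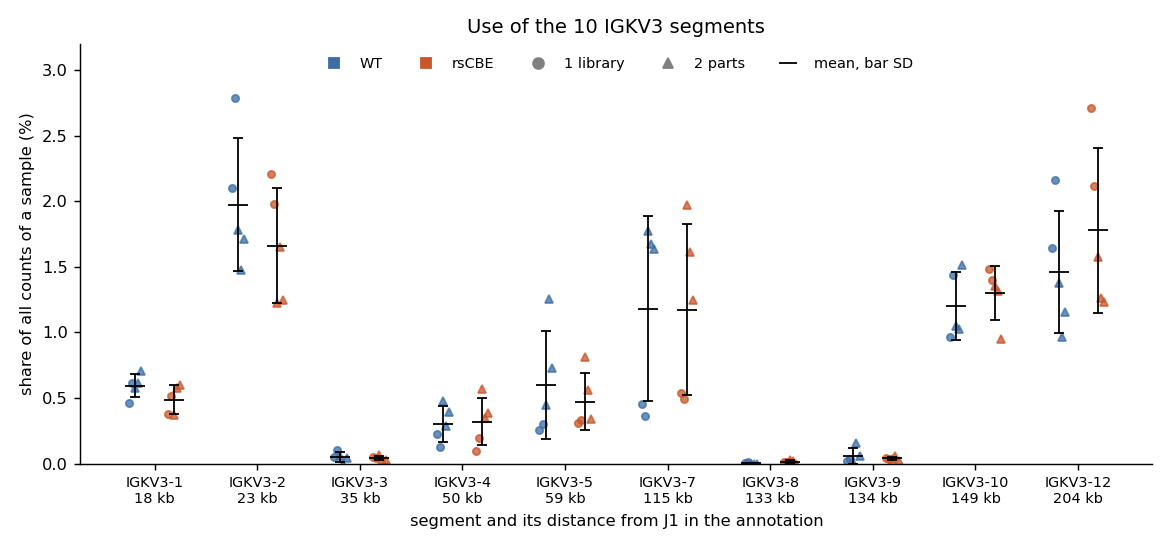
Share of all counts of a sample (%, vertical axis) for each of the 10 IGKV3 segments, in order of distance from J1. Points are samples (blue WT, orange rsCBE; circles for replicates given as 1 library, triangles for those given as 2 parts), and black marks are means with SD (n = 5). IGKV3-7 lies at 0.365 to 0.540% in the circles and 1.24 to 1.97% in the triangles of both genotypes.

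The leading segment, IGKV3-2, made up 2.10, 2.79, 1.78, 1.48 and 1.71% of all counts in WT replicates 1 to 5. In rsCBE it made up 2.21, 1.98, 1.22, 1.65 and 1.24%. The ranges overlap, and the highest value of each genotype was in batch 1. IGKV3-12 made up 1.64, 2.16, 1.38, 0.965 and 1.16% in WT and 2.71, 2.12, 1.58, 1.26 and 1.24% in rsCBE. This outermost member again overlaps between genotypes and was highest in batch 1. IGKV3-10 made up 0.962, 1.44, 1.05, 1.03 and 1.52% in WT and 1.48, 1.40, 1.36, 1.31 and 0.952% in rsCBE, and the lowest and highest samples of the 10 include both genotypes. IGKV3-7 made up 0.457, 0.365, 1.77, 1.67 and 1.64% in WT and 0.540, 0.494, 1.97, 1.62 and 1.24% in rsCBE, a split by batch and not by genotype.

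None of these differences between genotypes passed the test. Of the 10 segments 7 had enough counts to be tested (IGKV3-3, IGKV3-8 and IGKV3-9 had too few), and 0 of the 7 had an adjusted p under 0.05 in edgeR's quasi-likelihood test. The background was 0% of the 98 V segments tested. At an unadjusted p under 0.05 there were 0 of the 7 and 7 of the 98, and DESeq2 also called 0, with 8 of the 98 at an unadjusted p under 0.05. Log2 fold changes ran from -0.28 (SE 0.24) for IGKV3-1 to 0.27 (SE 0.28) for IGKV3-12, with an adjusted p of 0.992 for each of the 7. Their median was 0.01, against -0.05 for all 98 segments. Adding a batch term to the edgeR fit gave 2 calls among the 98 segments (2.04%), and adding the replicate number as a block gave 1 (1.02%), again 0 of the 7. Of the other J-proximal V segments, those numbered 13 to 45, 26 were tested and 0 were called, and 1 was called higher with the batch term.

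The batches differed more than the genotypes did. Batch 2 against batch 1, with genotype as a term in edgeR, gave an adjusted p under 0.05 for 5 of the 7 members and for 57.1% of the 98 segments. IGKV3-7 was higher in batch 2 by 1.83 on the log2 scale (SE 0.19, adjusted p = 3.19e-07). IGKV3-4 and IGKV3-5 were higher by 1.38 (SE 0.29) and 1.13 (SE 0.30). IGKV3-12 and IGKV3-2 were lower, with log2 fold changes of -0.75 (SE 0.15) and -0.58 (SE 0.14). Each batch held both genotypes, and why the batches differ was not tested.

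Of the 3 scarce members, IGKV3-3 had 0 to 22 counts a sample and IGKV3-9 had 2 to 11. The pseudogene IGKV3-8 had 1 to 5 counts in 6 samples, in 7 clonotypes. It had 0 counts in WT replicates 3, 4 and 5 and in rsCBE replicate 5. At the depths of these samples 0 counts allow a share of up to 0.0217, 0.0965, 0.0327 and 0.0257%, so a share of the size seen in WT replicates 1 and 2, up to 0.00935%, is not excluded by these counts.

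By Pearson's r of log2 shares over the 10 samples, the V segments outside the family most like it were IGKV8-19, IGKV8-21 and IGKV8-24, at 0.433, 0.366 and 0.294 among 53 segments compared. The order depends on the measure. Spearman's rho was 0.139, 0.139 and 0.321, below the 0.358 of IGKV8-16, and with values centred within batches r was 0.426, 0.370 and 0.437, below the 0.570 of IGKV8-16. These are weak likenesses, given as a description, and all shares of a sample have the same total.

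J use was where the family differed between genotypes. J1, the first J segment, made up 44.5, 40.8, 39.4, 37.9 and 46.0% of the IGKV3 counts in WT replicates 1 to 5. In rsCBE it made up 33.2, 31.0, 29.4, 31.4 and 33.6%. Every WT sample was above every rsCBE sample. The WT mean of 41.7% (SD 3.40, n = 5) stood against 31.7% in rsCBE (SD 1.69, n = 5). J1 use was thus lower in rsCBE, by a difference of -9.98 percentage points (95% interval -14.5 to -6.13). The two-sided exact permutation test gave p = 0.00794, the smallest that 252 arrangements allow, and an adjusted p of 0.0381 over 48 tests. These were of 4 J segments in the 12 V families with at least 50 counts in each sample. For any test to pass, at least 8 of the 48 had to reach that smallest p, and 10 did. The call therefore rests on other families as well.

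That J1 result was shared with other families. The J1 share was lower in rsCBE in 11 of the 12 families, and 5 of 12 (41.7%) were called lower, IGKV3 among them. The difference of IGKV3 was the lowest of the 12, next to -9.95 points in IGKV12, which was not called. When the exact test exchanged genotypes only inside a batch the adjusted p was 0.0667. When it exchanged them only inside pairs of equal replicate number it was 0.200, and the raw p was the smallest such a test can give, 0.0625. Without any 1 of the 5 rsCBE samples it was 0.0586 to 0.0762. The difference was -10.6 points in batch 1 and -9.58 in batch 2.

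J5, the last J segment, made up 14.9, 16.4, 19.9, 28.9 and 18.7% of the IGKV3 counts in WT and 28.1, 29.3, 30.5, 30.5 and 29.2% in rsCBE. The rsCBE samples lie close together, and all WT samples but replicate 4 are below them. The means were 19.8% (SD 5.46, n = 5) and 29.5% (SD 1.01, n = 5), 9.77 points apart (95% interval 4.28 to 14.2). The exact permutation test gave p = 0.0159 and an adjusted p of 0.0544, so the difference missed the threshold. Without WT replicate 4, the shallowest library, it was 12.0 points, with an adjusted p of 0.0267, and with each clonotype counted once it was 6.41 points, with an adjusted p of 0.0952. The J5 share was higher in rsCBE in all 12 families, and 4 of 12 (33.3%) were called higher.

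J2 and J4 showed no such difference. J2 made up 22.4% ± 5.73 of the IGKV3 counts in WT and 21.4% ± 1.02 in rsCBE (n = 5 each, SD), with an interval of the difference from -5.11 to 4.61 points and an adjusted p of 0.844 by the exact permutation test. A lower J2 share was called in 8.33% of the 12 families. Without WT replicate 4 the J2 difference was -3.52 points with an adjusted p of 0.0267. J4 made up 16.1% ± 2.90 and 17.3% ± 1.16 (n = 5 each, SD), with an adjusted p of 0.599 by the same exact test, and 0% of the families were called for J4. J3 had 0% of the IGKV3 counts in every WT sample and at most 0.120% in rsCBE.

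**Figure D2:**
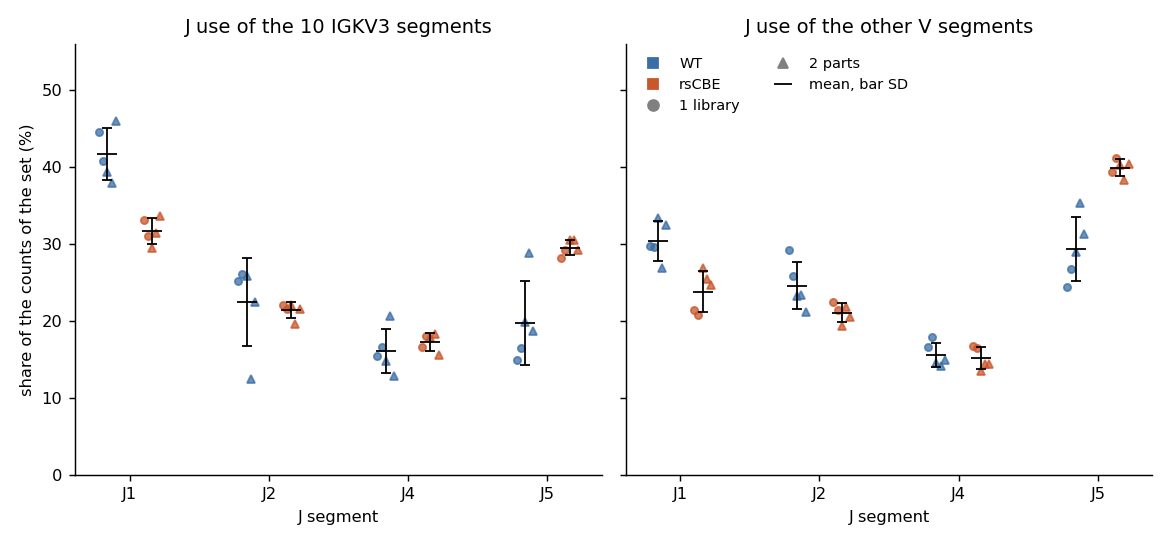
J use (%, vertical axis) of the 10 IGKV3 segments (left) and of the other V segments (right) by sample; points, colours and marks as in the plot of segment shares (mean and SD, n = 5). IGKV3 has more J1 and less J5 than the other V segments in each genotype, and J1 is lower in all rsCBE samples of IGKV3 (at most 33.6%) than in WT (at least 37.9%).

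Compared with the rest of the repertoire, IGKV3 used more J1 and less J5 than the other V segments pooled in each of the 10 samples. This was not particular to it: in WT, IGKV19 (51.9%), IGKV1 (49.7%) and IGKV12 (45.7%) had higher J1 shares, and IGKV3 ranked 4 of 12 families by J1 and 10 of 12 by J5. The J1 share was 9.61 points ± 3.75 (SD, n = 10) above that of the other V segments, and the J5 share was below it by a mean difference of -10.0 points ± 1.90 (SD, n = 10). Other V segments had 30.4% J1 in WT and 23.8% in rsCBE, and 29.4 and 39.9% J5. The J5 share of IGKV3 minus that of the other V segments was -9.60 points in WT and -10.4 in rsCBE, and this difference between genotypes of -0.80 points (95% interval -3.60 to 2.06) had an adjusted p of 0.730 in the exact permutation test. The J1 excess over the other V segments was 14.7, 11.2, 6.03, 11.1 and 13.5 points in WT replicates 1 to 5 and 11.8, 10.2, 2.59, 6.00 and 8.98 in rsCBE, lower in rsCBE within each of the 5 pairs of equal number (mean difference -3.40 points). The ranges of the genotypes overlap, and this J1 difference was not tested. A genotype difference in J5 use that is particular to the family was therefore not detected, and the interval leaves room for a few points.

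The low J5 and high J1 use was most marked in the 2 segments nearest to the J segments. Averaged over the 10 samples, J1 took 58.2% of the counts of IGKV3-1 and 58.9% of those of IGKV3-2, at ranks 3 and 2 of the 81 V segments with at least 5 counts in each sample. It took 44.3% of IGKV3-4, 32.5% of IGKV3-5, 20.9% of IGKV3-7, 34.5% of IGKV3-10 and 19.6% of IGKV3-12. J5 was low where J1 was high, with 14.2 and 12.9% in IGKV3-1 and IGKV3-2, 20.2 and 26.9% in IGKV3-4 and IGKV3-5, and 32.3, 26.0 and 31.7% in IGKV3-7, IGKV3-10 and IGKV3-12. IGKV3-7 and IGKV3-12 were near the middle of all V segments by J1 share, at ranks 46 and 49, but their J5 shares were below the median of 37.5% of the other V segments.

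**Figure D3:**
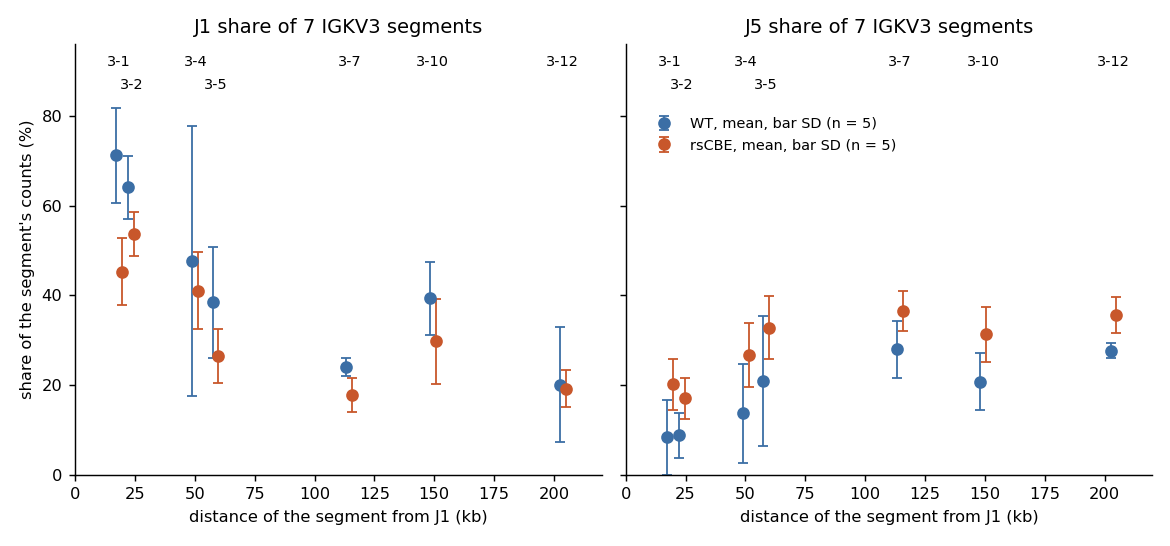
Share of a segment's counts joined to J1 (left) and J5 (right) (%, vertical axis) against the distance of the segment from J1 (kb), for the 7 IGKV3 segments with at least 5 counts in each sample. Points are means and bars SD over 5 samples of a genotype. Over both genotypes J1 takes 58.9% in IGKV3-2 and 19.6% in IGKV3-12.

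This pattern along the locus was noticed after the values were seen and is given as a description. Over the 7 segments Spearman's rho between distance and mean J1 share was -0.857, and between distance and J5 share 0.786. Over 73 other V segments the value for J1 was 0.110, and over the 25 of them on the strand of the J segments -0.192. For J5 the values of these sets were -0.182 and 0.3. The 7 points share libraries and are few. IGKV3-1 and IGKV3-2 pooled had a J1 share above that of IGKV3-7, IGKV3-10 and IGKV3-12 together in all 10 samples, by 20.9 to 54.5 points (mean 34.3 ± 9.62, SD, n = 10). The J5 share of the near pair was lower in all 10 samples, by a mean difference of -17.2 points ± 4.95 (SD, n = 10).

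The contrast of near and far segments held in each way of counting that was tried. In in-frame counts alone the J1 contrast was 34.6 points, in the counts that were not in-frame 30.2 points, and with each clonotype counted once 20.2 points, above 0 in 10 of 10 samples each time. How far the genotypes stood apart in the near pair depended on the counting. In all counts its J1 share was 64.4, 59.1, 69.0, 73.8 and 62.2% in WT and 53.1, 51.5, 51.9, 55.2 and 47.4% in rsCBE, with no overlap. In in-frame counts alone the genotypes overlapped (lowest WT 60.2%, highest rsCBE 61.4%), as they did with each clonotype counted once (39.6 and 40.5%). In the counts that were not in-frame they did not, at 55.2 to 70% in WT and 32.4 to 42.2% in rsCBE. For the 3 far segments the J1 share in all counts was 27.3, 26.3, 24.8, 19.3 and 37.7% in WT and 22.3, 18.9, 22.2, 19.1 and 26.5% in rsCBE, and these ranges overlap. Within each pair of equal replicate number the rsCBE value was the lower one. The near minus far contrast in J1 was 38.6 points ± 11.4 in WT and 30.04 points ± 5.64 in rsCBE (n = 5 each, SD). It too was lower in rsCBE within each such pair, and its difference between genotypes was not tested.

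Among single segments IGKV3-1 had the widest gap between genotypes in J1 share. The share was 69.8, 59.5, 88.8, 68.4 and 69.2% in WT and 49.5, 48.3, 32.4, 46.3 and 50% in rsCBE, from 19 to 131 counts a sample. IGKV3-2 had 63.3, 59.1, 62.6, 76.1 and 59.2% in WT and 53.8, 52.4, 57.8, 58.3 and 46.2% in rsCBE. In these 2 of the 7 segments the lowest WT sample was above the highest rsCBE sample, as in 7 (8.64%) of the 81 V segments with at least 5 counts in each sample. With so few members nothing is read from that count. IGKV3-12 showed no such order in J1 (20.1% ± 12.8 and 19.2% ± 4.16), while its J5 share was 27.5, 27.5, 27.9, 30 and 25.5% in WT and 37.4, 39.6, 36.5, 28.9 and 36.1% in rsCBE, so that only rsCBE replicate 4 lay within the WT range. These are shares of the segment's own counts, with no test at this level.

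Tested as V-J pairs, that is as shares of all counts, none of the family's joins passed. Of 270 pairs tested in edgeR 25 were of the family, and 0 had an adjusted p under 0.05, against a background of 0%. At an unadjusted p under 0.05 there were 2 of the 25 and 25 of the 270. The 3 with the smallest p were IGKV3-1 with J1 (log2 fold change -0.91, SE 0.34, adjusted p = 0.459), IGKV3-10 with J5 (0.77, SE 0.35, adjusted p = 0.480) and IGKV3-12 with J5 (0.66, SE 0.34, adjusted p = 0.503). A batch term in edgeR gave 7 calls of 270 (2.59%) and DESeq2 called 3 (1.11%), in each case 0 of the family. In batch 1 alone, a fit added after the data were seen, 12.3% of 285 pairs were called, among them 1 of 24 family pairs, IGKV3-12 with J5. By direction, 5 of 7 family pairs with J1 were below 0, as were 49 of all 60, with medians of -0.39 and -0.37. All 6 with J5 were above 0, as were 71 of all 83, with medians of 0.66 and 0.47.

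The 2 most alike pairs of segments were also close in J1 use, but J1 use did not follow identity in all pairs. This too was noticed in the values and carries no test. Among the 21 pairs of the 7 segments, IGKV3-5 and IGKV3-10 (98.1% identical in the V exon, 90.7 kb apart) differed in J1 share by -2.05 points ± 6.53 (SD, n = 10). IGKV3-7 and IGKV3-12 (96.8%, 89.2 kb apart) differed by 1.23 ± 9.81. Both differences were smaller than their spread over the samples. The next pair in identity, IGKV3-1 and IGKV3-2 (92.9%, 5.11 kb apart), had a mean difference of -0.65 with an SD of 13.8, which joins opposite orders: IGKV3-1 had the higher J1 mean in WT (71.2 against 64.0%) and the lower one in rsCBE (45.3 against 53.7%). Further down, IGKV3-2 differed from IGKV3-5 by 26.4 points and from IGKV3-10 by 24.3, each at 90.6% identity. IGKV3-5 and IGKV3-7 differed by only 11.6 points at 85.8%, and IGKV3-7 and IGKV3-10, with the same identity, by -13.7 ± 7.35. The sequence at the recombination signals was not analysed here.

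The junctions of the family were short and repeated from sample to sample. Matching each CDR3 from the left to the germline V end and from the right to the J start placed 95.6% of the counts within 10 bases of the V end. Of these, 87.7% needed no base outside V and J, and the V end had lost 3 bases in 52.4%, 1 base in 17.6% and none in 12.7%. On average 2.48 V bases were lost in WT and 2.43 in rsCBE (SD 0.0963 and 0.0475, n = 5). In such a match a base that fits both ends is counted as V, and an added base that happens to fit is not seen as added.

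Joins without added bases gave the same CDR3 again in each sample, and the most used are shown with V bases in capitals and the remaining J bases in lower case.
IGKV3-2 with J1: CAGCAAAGTAAGGAGGTTCCgtggacg
IGKV3-2 with J2: CAGCAAAGTAAGGAGGTTCCgtacacg
IGKV3-2 with J1, second form: CAGCAAAGTAAGGAGGTTCCTCggacg
IGKV3-7 with J2: CAGCACAGTTGGGAGATTCCgtacacg
IGKV3-12 with J2: CAGCACAGTAGGGAGCTTCCgtacacg
IGKV3-10 with J2: CAGCAAAATAATGAGGATCCgtacacg
IGKV3-10 with J1: CAGCAAAATAATGAGGATCCgtggacg
IGKV3-12 with J4: CAGCACAGTAGGGAGCTTCCattcacg
IGKV3-7 with J4: CAGCACAGTTGGGAGATTCCattcacg
IGKV3-12 with J5: CAGCACAGTAGGGAGCTTCCgctcacg
The first of these, which encodes QQSKEVPWT, made up 7.27% ± 2.34 of the IGKV3 counts in WT and 5.13% ± 2.10 in rsCBE (n = 5 each, SD). The others had means over the 10 samples from 2.65% down to 1.78%. All 10 were present in every sample, and 9 of them lose 3 V bases and at most 1 J base, the exception being the second form of IGKV3-2 with J1, which encodes QQSKEVPRT. Together the 10 made up 29.1% ± 4.88 of the IGKV3 counts in WT and 24.2% ± 3.82 in rsCBE (n = 5 each, SD), ranges that overlap.

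Sharing between samples was concentrated in these simple joins. Of the 1668 distinct clonotypes 17 occurred in all 10 samples and held 35.0% of the counts. Of these 17, 16 were in-frame and 15 had lost 3 V bases and no more than 1 J base. They belonged to IGKV3-2 and IGKV3-10 (4 each), IGKV3-12 (3), IGKV3-1 and IGKV3-7 (2 each), and IGKV3-4 and IGKV3-5 (1 each). At the other end 1176 clonotypes occurred in 1 sample and held 12.3% of the counts.

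Most CDR3s had 1 length. Among in-frame counts, those whose CDR3 is a multiple of 3 bases and holds no stop, 85.7% had 27 bases or 9 amino acids, 7.04% had 30 and 5.53% had 24. Other V segments had 27 bases in 75.8% of in-frame counts on average. The mean length was 27.03 bases ± 0.102 in WT and 27 ± 0.0355 in rsCBE (n = 5 each, SD). The exact permutation test gave an adjusted p of 0.992 over 12 families for this difference, with an interval from -0.14 to 0.06 bases. A mean can hide opposite differences, and the 27-base share was 87.4% ± 4.18 in WT against 83.8% ± 1.85 for rsCBE (n = 5 each, SD), with overlapping ranges. CDR3s of 21 bases made up at most 1.16% of in-frame counts in WT and at least 1.21% in rsCBE, on 92 counts in all. These shares by length were not tested.

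The in-frame share was lower on average in rsCBE, but the difference did not pass the test. The in-frame share of IGKV3 counts was 75.7, 73.3, 74.6, 69.0 and 74.9% in WT and 70.6, 66.8, 64.8, 70.2 and 63.0% in rsCBE. WT replicate 4 lies among the rsCBE samples, and the other WT samples are above them all. The means were 73.5% ± 2.67 and 67.0% ± 3.31 (n = 5 each, SD), and they differed by -6.44 points (95% interval -10.9 to -1.96). The exact permutation test gave p = 0.0238 and an adjusted p of 0.143 over 12 families, of which 0 were called (0%), with 11 of 12 lower in rsCBE. With each clonotype counted once the difference was -9.53 points with an adjusted p of 0.0238. No other alternative passed in the exact tests, with adjusted p from 0.0714 to 0.305, the last without clonotypes of 1 count (-5.58 points). Set against the other V segments, whose in-frame share was 70.4% in WT and 65.1% in rsCBE, the family's difference between genotypes was -1.16 points with an adjusted p of 0.788 in the exact test. Stop codons within the CDR3 were scarce, at 0.303% of IGKV3 counts against 0.989% in the other V segments.

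Split by J segment, the in-frame share was lower in rsCBE mainly among J5 joins, with J4 unclear. With J1 it was 77.7% ± 4.10 in WT and 77.0% ± 3.0 in rsCBE, and with J2 73.8% ± 10.7 and 72.4% ± 5.15 (n = 5 each, SD). With J5 it was 66.2, 65.2, 65.4, 61.2 and 72.1% in WT and 53.5, 55.6, 47.7, 64.1 and 54.9% in rsCBE. All rsCBE samples but replicate 4 were below every WT sample, and the difference of the means was -11.2 points in batch 1 and -10.7 in batch 2. With J4 it was 69.1% ± 8.53 in WT and 62.4% ± 5.33 in rsCBE (n = 5 each, SD), but the difference was 2.90 points in batch 1 and -13.1 in batch 2. Other V segments with J5 had 67.3% in WT and 60.6% in rsCBE. These splits were not tested.

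**Figure D4:**
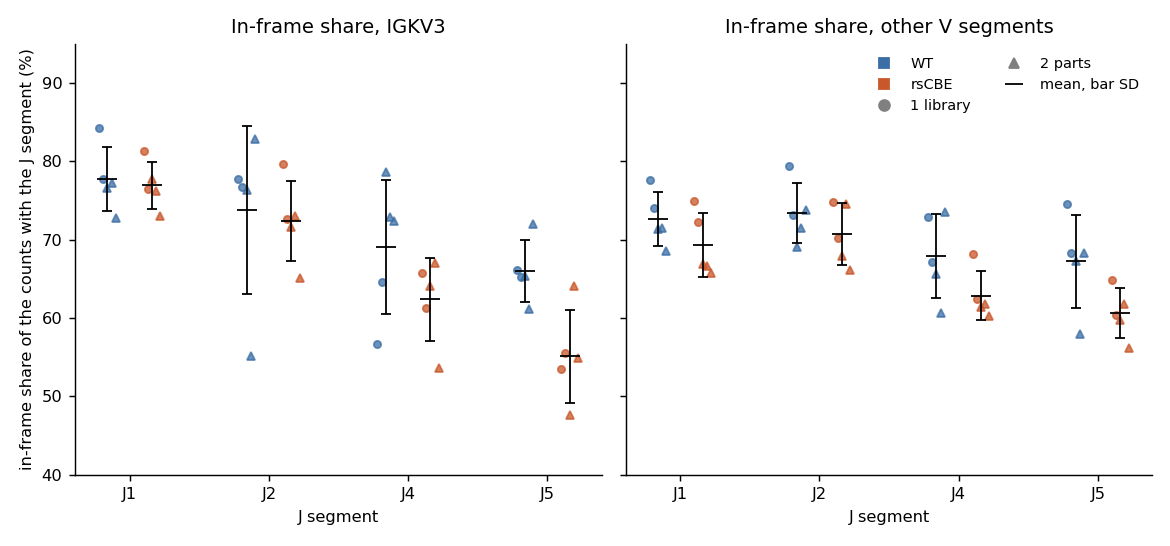
In-frame share (%, vertical axis, starting at 40) of the counts with each J segment, for IGKV3 (left) and the other V segments (right); points, colours and marks as in the plot of segment shares (mean and SD, n = 5). For IGKV3 the means are 77.7 and 77.0% in J1 and 66.0 and 55.1% in J5, where rsCBE replicate 4 (64.1%) lies within the WT range.

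By segment, IGKV3-12 had an in-frame share of 69.2% ± 5.27 in WT and 55.7% ± 7.95 in rsCBE, and IGKV3-1 had 82.8% ± 9.43 and 73.6% ± 3.92 (n = 5 each, SD). The difference between genotypes in IGKV3-12 was -6.65 points in batch 1 and -18.0 in batch 2. In IGKV3-1 it was -0.59 and -15.0 points. IGKV3-2 had 72.7% ± 7.64 and 74.9% ± 2.15, and IGKV3-7 had 69.2% ± 14.7 and 69.7% ± 5.36, values that differ by less than their spread. In the counts that were not in-frame, J5 made up 20.7, 21.4, 27.2, 36.1 and 20.8% in WT and 44.4, 39.1, 45.3, 36.7 and 35.6% in rsCBE. WT replicate 4 again lies within the rsCBE range. In the in-frame counts J5 took 17.7% ± 4.85 in WT against 24.3% ± 2.56 for rsCBE (n = 5 each, SD).

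1 junction recurred among the J5 joins that were not in-frame. The V ends of 9 of the 10 segments read CTCC, and the start of J5 reads GCTC, so both ends hold the bases CTC. A join in which these 3 bases are shared loses 1 V base and gives a CDR3 of 25 bases, which is out of frame. The form with 3 V bases lost and J5 complete, called the direct joint here, gives 27 bases and stays in frame. Both are shown for IGKV3-12 and IGKV3-10, the segments with most of them, with V bases in capitals and the remaining J5 bases in lower case.
IGKV3-12 with J5, shared bases: CAGCACAGTAGGGAGCTTCCTCacg
IGKV3-12 with J5, direct: CAGCACAGTAGGGAGCTTCCgctcacg
IGKV3-10 with J5, shared bases: CAGCAAAATAATGAGGATCCTCacg
IGKV3-10 with J5, direct: CAGCAAAATAATGAGGATCCgctcacg

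The shared-base joint was found with each of the 9 segments, with 448 counts in all, of which IGKV3-12 had 171, IGKV3-10 79 and IGKV3-7 73. It made up 1.70, 1.83, 1.72, 2.16 and 1.78% of the IGKV3 counts in WT and 5.08, 5.42, 6.15, 3.68 and 5.96% in rsCBE. Every rsCBE sample was above every WT sample, and the means were 1.84% ± 0.184 and 5.26% ± 0.977 (n = 5 each, SD). As a share of the J5 counts alone it was 11.4, 11.1, 8.65, 7.46 and 9.56% in WT and 18.1, 18.5, 20.1, 12.1 and 20.4% in rsCBE, again without overlap. By segment, the means in WT and rsCBE were 11.1 and 15.3% in IGKV3-2, 5 and 17.6% in IGKV3-4, and 22.8 and 23.6% in IGKV3-5. They were 3.35 and 16.7% in IGKV3-7, 7.18 and 18.5% in IGKV3-10, and 7.90 and 19.1% in IGKV3-12. In each of these segments taken singly the genotypes overlapped. The direct joint made up 37.4% ± 7.01 of the J5 counts in WT against 28.1% ± 7.05 for rsCBE (n = 5 each, SD), with ranges that overlap. This junction was picked after its values were seen, so no test is given. The same 25 bases of IGKV3-12 also occurred with the J call J4, with 72 counts in 8 samples. There the means were 0.372% of the IGKV3 counts in WT and 0.714% in rsCBE.

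Outside the family the genotypes overlapped in a like junction. Among other V segments, junctions of 25 bases with the same last 7 bases made up 8.03% ± 2.52 of the J5 counts in WT and 9.21% ± 1.11 in rsCBE, with overlapping ranges, while by this wider rule IGKV3 had 10.1% ± 1.94 and 19.3% ± 3.57 (n = 5 each, SD). The other V segments were not limited to those whose germline end allows the shared-base joint, so these shares are not of like sets. Whether the family differs from the others here was not tested.

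**Figure D5:**
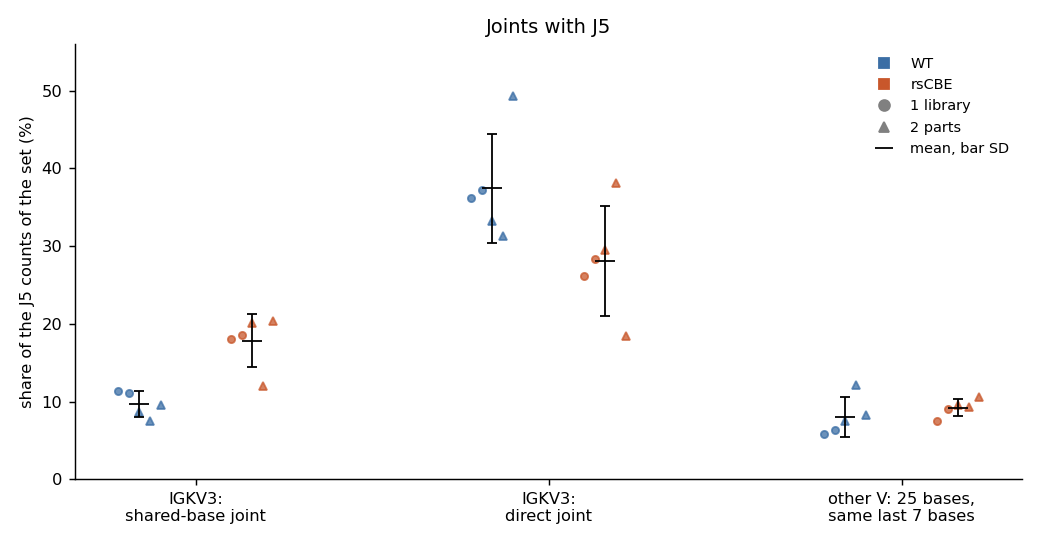
Share of J5 counts (%, vertical axis) in the shared-base joint and the direct joint of IGKV3, and in junctions of the other V segments with 25 bases and the same last 7 bases; points, colours and marks as in the plot of segment shares (mean and SD, n = 5). The shared-base joint is at 7.46 to 11.4% in WT and 12.1 to 20.4% in rsCBE.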

How the data were processed

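The authors' deposited table, per the file headers, lists for each library a V call of both reads, a J call, the CDR3 and a count. Per the labels' protocols, RNA of sorted pre-B cells was made into libraries and read in pairs on a MiSeq. The table's 49079 lines name 16 libraries of 10 samples. These deposited counts are whole numbers without normalization, and the smallest is 1. The caller, its germline set, read filters and what a count stands for are not given in the sources used here. The submitters' processing notes name the build mm10. Alleles were merged, 49 duplicate lines added up, and the 2 parts of replicates 3 to 5 summed.

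For usage, edgeR 4.0.16 (R 4.3.3) was fitted over all V segments, V-J pairs or families, with its quasi-likelihood F-test. Library sizes were total counts with factors of 1, filterByExpr removed low features, and Benjamini-Hochberg adjusted p-values under 0.05 were calls. J shares, frame and length were tested by exact permutation, two-sided, over 252 arrangements, adjusted over 48 tests for J shares and over 12 families for each other measure. Intervals of a difference are the values not rejected at 95% by that exact test, and intervals of a single share are Wilson intervals. DESeq2 1.42.0 was an alternative. The edgeR and exact scripts were tested on simulated data. Other alternatives were TMM factors, no filter, a batch term, the replicate block, clonotypes counted once or without those of 1 count, part a or b alone, and each sample left out. Fits within 1 batch were added after the data were seen.

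Same-numbered WT and rsCBE samples had correlations of 0.174 to 0.838 over 59 V segments for the 5 pairs. The main tests did not use the replicate numbers, and the block that pairs samples by number was an alternative. The labels do not say what a number stands for, and 2 of the 5 WT samples matched their own number best.

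Germline ends and positions come from GENCODE M21 transcripts and annotation (GRCm38). Named segments were all 10 members, with values by sample for the 4 most used. Clonotypes were the 10 with the highest mean share, and the likest V segments the 3 with the highest correlation. The members and lists were chosen with earlier results of these data known.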

Additional observations from a re-analysis of the deposited data

Results flagged for a closer look

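Among 38 groups of 5 samples looked at, 5 held 1 sample standing apart by Dixon's criterion at 95%, which asks that the distance to the next sample exceed 0.71 of the whole range. About 1 in 20 groups is expected to do so by chance. WT replicate 4, with 232 IGKV3 counts the shallowest library, stood apart in 3 of them. Its J2 share was 12.5%, against 22.5 to 26.1% in the other WT samples. Its mean CDR3 length was 27.21 bases, against 26.97 to 27.02. Its IGKV3-9 share was 0.161% of all counts, from 5 counts, against 0.0145 to 0.0546%. In rsCBE, replicate 4 had a J2 share of 19.6%, against 21.6 to 22.1%. WT replicate 1 had an IGKV3 share of 6.19% of all counts, against 7.46 to 7.96%.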

How the results depend on the processing

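The J1 difference of IGKV3 was below 0 under all 18 alternatives. Its adjusted p by the exact test ran from 0.0267 to 0.200, and it missed the threshold with labels exchanged within batches (-9.98 points, adjusted p = 0.0667), with the replicate block (-9.98 points, adjusted p = 0.200) and without each rsCBE sample in turn. The raw p was 0.00794 with any 1 sample left out, as with all 10. Leaving out 1 sample gave -10.9 to -8.92 points. Exchanges restricted to batches or pairs raise the smallest p that can be reached, to 0.0167 and 0.0625. The J5 difference passed with part a alone (11.1 points, adjusted p = 0.0346) and without WT replicate 4 (8.56 to 12.0 points over all samples left out). It did not pass in the others that were tested, with adjusted p up to 0.200 (replicate block), and was smallest, 6.41 points (adjusted p = 0.0952), with each clonotype counted once. J2 turned to 1.79 points with each clonotype counted once, and ran from -3.52 to -0.12 points with a sample left out. The J5 difference against other V segments was 0.31 points with part a alone. The in-frame difference with each clonotype counted once was -9.53 points. Set against other V segments, the in-frame difference ran from -2.44 to 0.44 points over the alternatives that kept all samples or took 1 batch. The highest value was in batch 1 alone. The CDR3 length difference was 0.0495 bases with each clonotype counted once, and -0.0445 to 0.0157 with a sample left out. Except as stated, the cause was not tested. The replicate block changed no other call of a single result.

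IGKV3 usage turned above 0 with TMM factors (log2 0.0225), with each clonotype counted once (0.0851) and in batch 1 alone (0.0836), and ran from -0.0837 to 0.0361 with a sample left out, with no adjusted p under 0.642. The count of V segments called rose from 0 to 2 with the batch term and 1 with the replicate block. The count of V-J pairs rose from 0 to 3 with DESeq2, 7 with the batch term and 35 of 285 (12.3%) in batch 1 alone, of which 1 was among the 24 family pairs tested: IGKV3-12 with J5 (0.82, SE 0.24, adjusted p = 0.0365). With a sample left out both counts were 0.

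Single segments changed sign without passing the test. IGKV3-1 was 0.00595 with each clonotype once. IGKV3-4 was -0.0376 with the batch term, -0.0150 with the replicate block, -0.0403 without clonotypes of 1 count and -0.29 in batch 1 alone. IGKV3-5 was 0.32 with each clonotype once and 0.20 in batch 1 alone. IGKV3-7 was -0.0275 with DESeq2, -0.0147 with part a alone and -0.0714 in batch 2 alone. IGKV3-10 was -0.0789 with each clonotype once. With a sample left out IGKV3-4 ran from -0.24 to 0.33, IGKV3-5 from -0.57 to 0.14 and IGKV3-7 from -0.26 to 0.23. The others kept their sign when a sample was left out. IGKV3-1 ran from -0.37 to -0.20, IGKV3-2 from -0.38 to -0.096, IGKV3-10 from 0.042 to 0.21 and IGKV3-12 from 0.072 to 0.46. In the shallowest library, 232 IGKV3 counts put an interval of 8.85 to 17.4% on a J2 share of 12.5%.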
